A study of Mus musculus with 16 samples.

Results

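The protein arginine methyltransferases (PRMTs) are enzymes that add methyl groups to arginine side chains of histones, splicing factors, ribosomal proteins and transcriptional regulators. The mRNA of 7 of them, Prmt1, Prmt2, Prmt3, Carm1 (also called Prmt4), Prmt5, Prmt6 and Prmt7, was followed in mouse seminal vesicle (SV). The 7 genes were listed by name, all 7 were found among the 31274 genes of the FPKM table (fragments per kilobase of transcript scaled to the reads of each library), and all 7 passed the minimum of a mean above 1 FPKM in at least 1 group.

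The family is divided by product. Type I enzymes (PRMT1, PRMT2, PRMT3, CARM1 and PRMT6) make asymmetric dimethylarginine, the type II enzyme PRMT5 makes symmetric dimethylarginine, and the type III enzyme PRMT7 stops at monomethylarginine. All of them draw the methyl group from S-adenosylmethionine, and PRMT1, PRMT2 and CARM1 are known as coactivators of nuclear receptors, oestrogen receptor α (ERα) among them. The SV is an androgen-dependent gland whose epithelium makes most of the proteins of seminal fluid.

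RNA-seq was performed on SVs of C57BL/6 mice collected at week 5, in 4 groups of 4 samples. WT mice and mice with a global deletion of ERα (αERKO) had received subcutaneous corn oil alone (WT-veh, αERKO-veh) or the synthetic oestrogen diethylstilbestrol (DES) in corn oil, each pup being given 2 µg a day from day 1 to day 5, with birth as day 1 (WT-DES, αERKO-DES). The study's methods describe RNA of individual mice for 3 of the groups and 3 pools of mice for WT-DES, fewer than the 4 WT-DES samples used here, and no label says which mice each sequenced sample holds, so p-values measure the spread between these samples. Because the receptor is missing from every cell of the αERKO mice from conception, a genotype difference does not separate an action in the SV from one elsewhere. The study's methods describe purchased pregnant females for WT and breeding of heterozygous animals for αERKO. Genotype and source of the litters therefore cannot be told apart.

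The promoters of 6 of the 7 genes were found in the RefSeq table (GRCm38.p6), Carm1 being the other. The stretches just upstream of the GENCODE M21 gene of Prmt1 (chr7:44986569-44986670, minus strand), of Prmt5 (chr14:54517526-54517720, minus strand) and of Prmt2 (chr10:76237866-76238115, minus strand) are shown because the first 2 genes fell with DES in WT and the third rose. They begin 250 bases before the RefSeq start and end at the GENCODE start, which lies 148 bases before the RefSeq start for Prmt1, 55 bases before it for Prmt5 and at the same base for Prmt2. Capitals mark matches, on either strand, to the E-box CACGTG, the CCAAT box CCAAT, the GC box GGGCGG, the TATA box TATAAA or the ETS site CCGGAAG.
Prmt1: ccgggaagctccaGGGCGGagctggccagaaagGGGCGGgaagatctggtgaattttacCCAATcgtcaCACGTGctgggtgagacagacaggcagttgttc
Prmt5: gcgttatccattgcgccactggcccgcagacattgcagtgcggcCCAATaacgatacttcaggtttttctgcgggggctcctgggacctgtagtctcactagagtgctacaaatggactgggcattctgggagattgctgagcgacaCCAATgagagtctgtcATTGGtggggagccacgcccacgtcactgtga
Prmt2: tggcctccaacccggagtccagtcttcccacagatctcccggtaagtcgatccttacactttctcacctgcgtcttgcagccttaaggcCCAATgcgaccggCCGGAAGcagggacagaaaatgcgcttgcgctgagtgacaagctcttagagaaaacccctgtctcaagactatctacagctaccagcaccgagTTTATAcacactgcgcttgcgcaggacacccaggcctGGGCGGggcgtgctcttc
Over the whole window of 250 bases before to 50 after the RefSeq start, the CCAAT box occurred 4 times in Prmt5, 3 times in Prmt1 and once each in Prmt2 and Prmt3, and 37.9% of all 27025 mouse promoters held it. The E-box was found in Prmt1 and Prmt3 (7.24% of all promoters), and the TATA box in Prmt2 alone of the 6 (14.2%). The GC box (35.9% of all promoters) lay in Prmt1, Prmt2, Prmt3 and Prmt7, the ETS site (9.12%) in Prmt2 and Prmt3, and none of these 5 motifs in Prmt6. The oestrogen response half-site AGGTCA, which 16% of all promoters held, did not occur in these windows of the 6 genes. The matches describe the letters only.

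Esr1, which encodes ERα, checks the genotypes. WT-veh samples had 2.81 to 4.55 FPKM and WT-DES samples 8.74 to 19.6, whereas αERKO-veh samples had 1.3 to 1.75 and αERKO-DES samples 0.91 to 1.64, so both αERKO groups lay below every WT sample without reaching 0. The SV secretory genes Svs1 to Svs6, Pate4 and Spinkl, 9 genes in all, had sums of 52736 to 61239 FPKM in the WT-veh samples, WT-DES samples lay between 2513 and 8195, αERKO-veh samples between 31859 and 50273, all below WT-veh, and αERKO-DES samples between 35654 and 67375, which overlapped with WT-veh. The 20 most abundant genes held 14.3% to 17.4% of the summed FPKM in WT-veh and 1.61% to 14.5% in WT-DES. In whole tissue, fewer cells of a type and less RNA per cell cannot be told apart.

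In normal SV at week 5, Prmt1, which makes most of the asymmetric dimethylarginine of mammalian cells, was the most abundant of the 7. Its level per length, 110 ± 5.59 FPKM (mean ± SD, n = 4), lay at the 93.9th to 94.6th percentile of the genes tested and made up 43.6% to 45.5% of the summed FPKM of the family within a sample. Prmt5 followed at 39.4 to 41.4 FPKM, with no overlap with Prmt1 or with the next gene. Prmt3 (22.6 to 25.4), Prmt7 (21.1 to 26.9) and Carm1 (19.1 to 23.8) overlapped: Prmt3 was above Prmt7 in 2 of 4 samples and Prmt7 above Carm1 in 3 of 4. Prmt2 (16.7 to 17.7) and Prmt6 (10.01 to 10.97) were the lowest and overlapped with none of the others. By group means Prmt1 and Prmt5 held the first 2 places in all 4 groups and Prmt6 the last (in WT-DES sample 1 Prmt2 exceeded Prmt5), while the middle of the order differed. In WT-DES Carm1 and Prmt2 stood above Prmt3 and Prmt7, and Prmt2 exceeded both of those genes in every WT-DES sample.

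**Figure D1:**
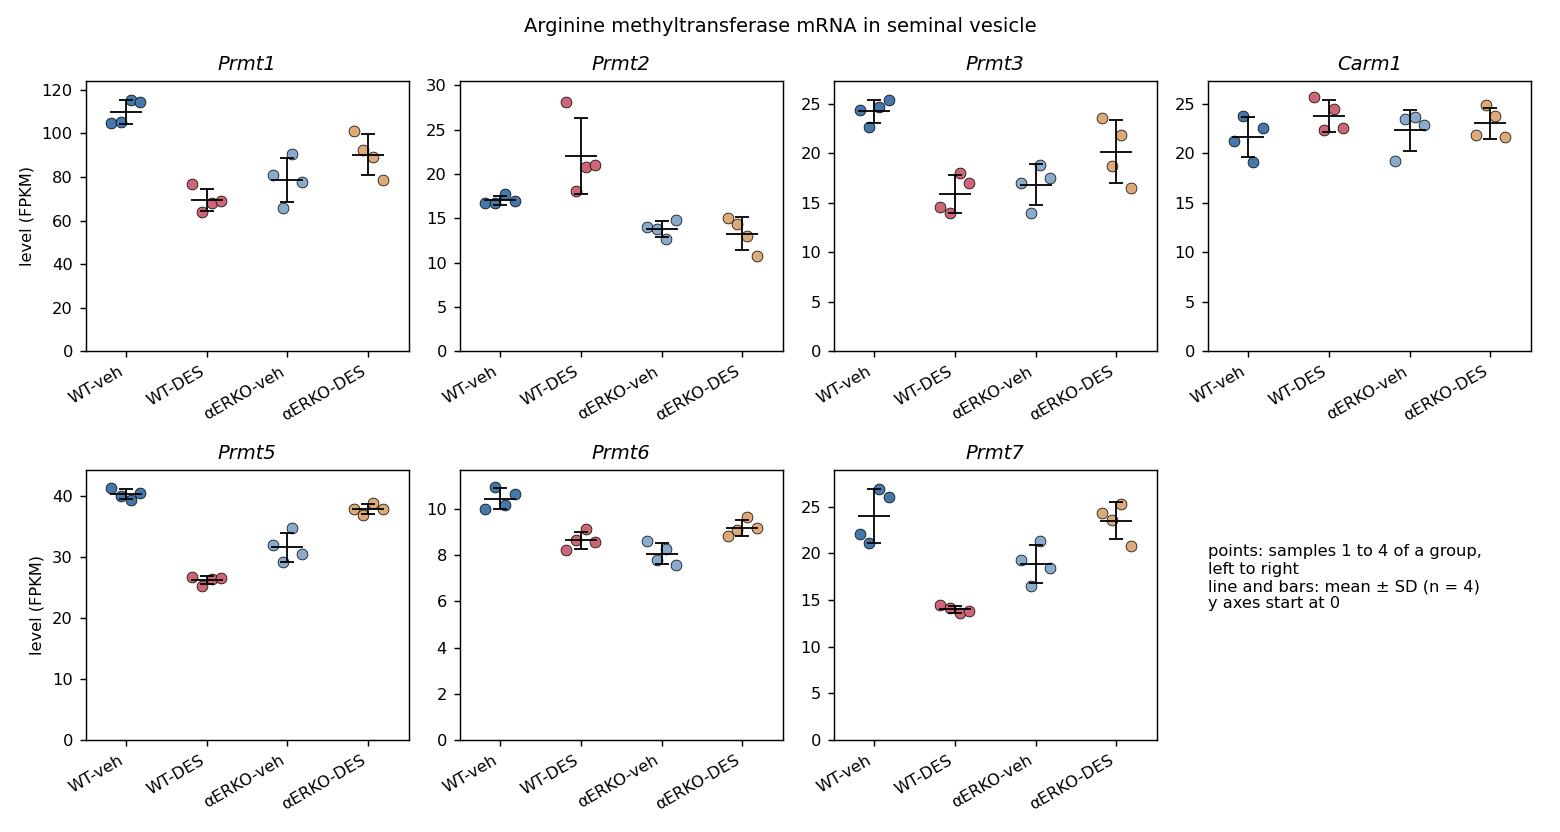
Level of each of the 7 genes in FPKM (y axes from 0) in the 16 samples of the 4 groups. Points are samples, and lines with bars are group means ± SD (n = 4). Prmt1, Prmt3, Prmt5, Prmt6 and Prmt7 are lower in WT-DES than in every WT-veh sample, Prmt2 is higher, and Carm1 overlaps in all 4 groups.

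WT-DES was compared with WT-veh to ask whether neonatal DES left the family altered at puberty. Of the 7 genes 6 changed (adjusted p of at most 0.05, limma, on log2(FPKM + 1)): 5 fell and Prmt2 rose. The background was high, since 73.8% of the 15988 genes tested changed in this comparison and 37.3% fell, so 6 of 7 is close to the share among all genes. Past a 1.5-fold difference of means stood 4 of the 7, Prmt1, Prmt3, Prmt5 and Prmt7, beside 52.9% of all genes. The median log2 difference of the 7 was -0.59, and that of all genes tested -0.01.

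Among the type I enzymes, Prmt1 measured 105, 105, 115 and 114 FPKM in the WT-veh samples and 76.6, 63.95, 68.3 and 69.0 in the WT-DES samples. Every WT-DES sample was below every WT-veh sample, and the lowest WT-veh sample stood well clear of the highest WT-DES sample. Prmt1 fell by 0.66 on the log2 scale (SE 0.10, limma adjusted p = 1.93e-05), a 1.58-fold lower mean. Prmt3, a cytosolic enzyme that methylates ribosomal protein S2, had 24.4, 22.6, 24.7 and 25.4 FPKM in WT-veh and 14.6, 14.02, 17.97 and 17.0 in WT-DES. The groups did not overlap, with WT-DES samples 1 and 2 lowest. It fell by 0.59 (SE 0.11, limma adjusted p = 0.000247), 1.53-fold on the means. Prmt6, the main writer of asymmetric dimethylation at arginine 2 of histone H3, went from 10.01, 10.97, 10.16 and 10.66 FPKM to 8.22, 8.64, 9.12 and 8.57. Here too the groups were apart, but the difference was small: Prmt6 fell by 0.25 (SE 0.06, limma adjusted p = 0.00148), 1.21-fold.

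Prmt2, a weakly active enzyme known as a coactivator of ERα and the androgen receptor, moved the other way. It measured 16.7, 16.7, 17.7 and 17.0 FPKM in WT-veh and 28.2, 18.1, 20.8 and 21.0 in WT-DES. All WT-DES samples were above all WT-veh samples, with WT-DES sample 1 far above the other 3. The rise was 0.34 on the log2 scale (SE 0.12, limma adjusted p = 0.0164), 1.29-fold on the means. Without WT-DES sample 1 the difference was 0.22 and the call was lost (adjusted p = 0.0525). That sample also held a summed smooth muscle marker level (Acta2, Myh11, Tagln, Cnn1 and Des) of 2938 FPKM, against 735 to 1119 in the other WT-DES samples and 2580 to 3136 in WT-veh, and the part of this in the Prmt2 value was not tested.

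Carm1, the coactivator that methylates histone H3 at arginine 17 and works with the p160 coactivators, had 21.2, 23.8, 19.1 and 22.6 FPKM in WT-veh and 25.7, 22.3, 24.5 and 22.5 in WT-DES. The groups overlapped, and the difference was 0.13 on the log2 scale with a 95% interval of -0.05 to 0.30 (limma adjusted p = 0.169).

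The type II enzyme Prmt5, which methylates the Sm proteins of the spliceosome with its partner Wdr77, varied little within these 2 groups. It measured 41.4, 40.0, 39.4 and 40.5 FPKM in WT-veh and 26.7, 25.2, 26.4 and 26.5 in WT-DES. Within each group the samples lay within about 2 FPKM, and the groups were far apart. Prmt5 fell by 0.60 (SE 0.05, limma adjusted p = 1.12e-07), 1.54-fold on the means. The type III enzyme Prmt7 had 22.1, 21.1, 26.9 and 26.0 FPKM in WT-veh and 14.5, 14.1, 13.6 and 13.8 in WT-DES. No samples overlapped, and the WT-DES samples were closer together than the WT-veh samples. Its fall of 0.73 (SE 0.09, limma adjusted p = 3.82e-06), 1.72-fold on the means, was the largest of the 7. The 5 genes that fell and Prmt2 were also apart sample by sample from WT-veh, as were 66.7% of all genes tested.

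**Figure D2:**
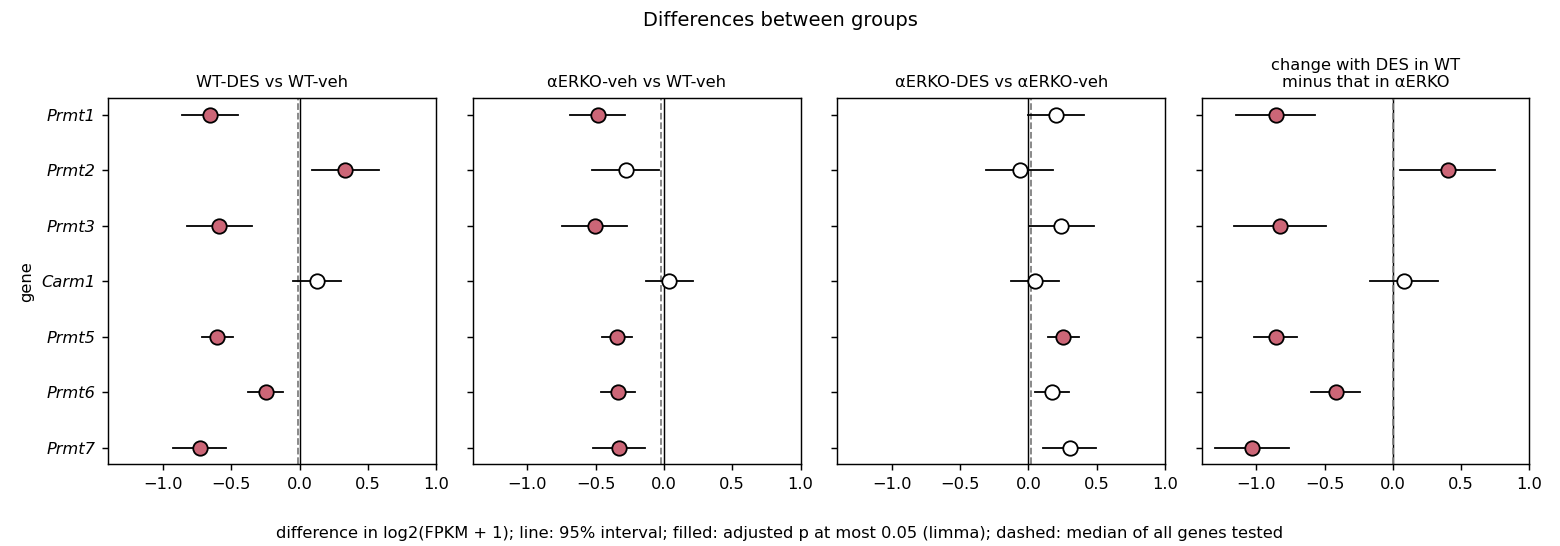
Difference in log2(FPKM + 1) for each of the 7 genes in 4 panels (x axis), with the 95% interval as a line, filled points for an adjusted p of at most 0.05 (limma) and a dashed line at the median of all genes tested. In WT, DES goes with lower Prmt1, Prmt3, Prmt5, Prmt6 and Prmt7 and higher Prmt2. In αERKO only Prmt5 is past the threshold, on the higher side.

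Cell type markers moved in the same comparison. All 10 leukocyte markers were higher in WT-DES (sum 394 to 590 FPKM against 76.5 to 134 in WT-veh), some of which, like Lep of the adipose list, were above the minimum in that group alone, as were all 6 fibroblast markers (1916 to 2091 against 731 to 881), all 4 endothelial markers (90.3 to 145 against 40.6 to 49.1), 4 of 5 adipose markers (483 to 1148 against 114 to 610) and 2 of 3 basal epithelial markers (123 to 348 against 107 to 135). Of 6 luminal epithelial markers 5 were lower (sum of the 6 at 800 to 1148 against 1463 to 1621) and Cdh1 (0.25) was higher. Lower too were all 9 secretory genes, 4 of 5 smooth muscle markers (735 to 2938 against 2580 to 3136), all 3 anterior prostate markers (58.8 to 409 against 4382 to 5409) and 3 of 8 skeletal muscle markers (39.1 to 337 against 738 to 2009). Of 8 cell division markers 1 was higher and 1 lower (53.4 to 78.4 against 65.6 to 86.7). None of the markers in the table was at 0 in every sample of a group. The part of cell composition in the levels of the 7 genes was not tested.

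FPKM are scaled to a sample's reads, and both the abundant secretory transcripts and the summed FPKM differed between these groups. The sum over all genes was 590446 to 652708 in the WT-veh samples and 375207 to 437619 in the WT-DES samples. When each sample was rescaled to an equal total without the 20 most abundant genes, the median of all genes tested shifted by 0.37 on the log2 scale. The rescaling evened the totals and left out those 20 genes at once, and the part of each was not tested. Relative to this scale Prmt1 (-0.23), Prmt5 (-0.18) and Prmt7 (-0.32) still passed the test on the lower side and Prmt2 (0.75) on the higher side. Prmt3 (-0.17, limma adjusted p = 0.121) no longer passed, Prmt6 turned to 0.15 (limma adjusted p = 0.0936), and Carm1 passed as higher at 0.55 (limma adjusted p = 0.000109). Under quantile normalization Carm1 was likewise higher (0.28, limma adjusted p = 0.00636), while Prmt1 (-0.09, limma adjusted p = 0.206) no longer passed. Among the differences of all genes tested, as deposited, Prmt7 stood at the 18.3rd percentile, Prmt1 at the 20.8th, Prmt5 at the 22.7th, Prmt3 at the 23.4th, Prmt6 at the 38.3rd, Carm1 at the 56.2nd and Prmt2 at the 64.8th.

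**Figure D3:**
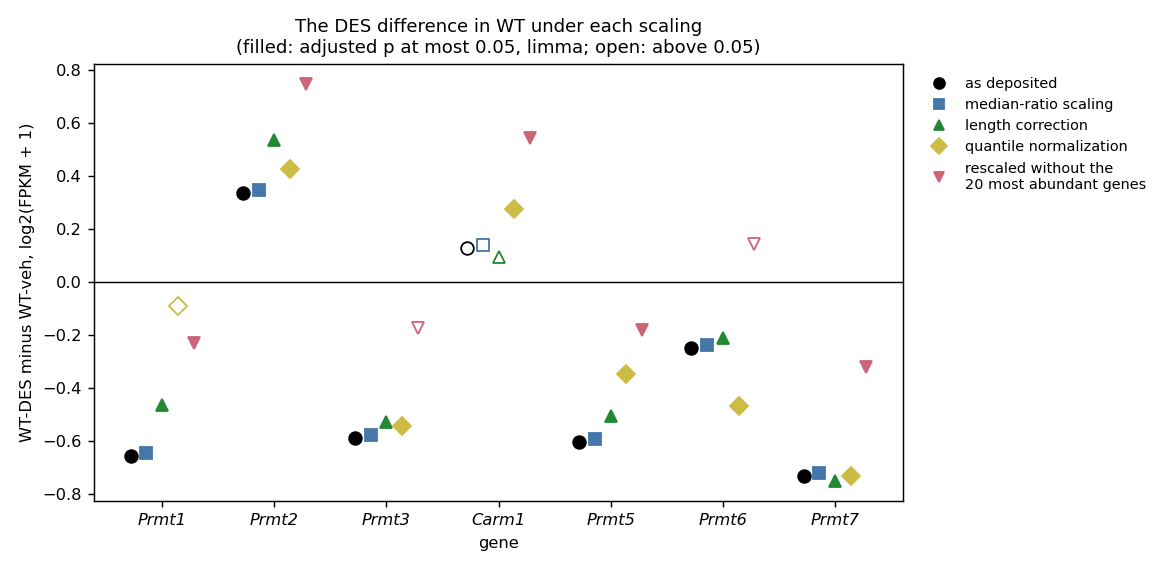
Difference between WT-DES and WT-veh in log2(FPKM + 1) (y axis) for the 7 genes (x axis) as deposited and under 4 other scalings or corrections, filled where the adjusted p was at most 0.05 (limma). Prmt2 is above 0 and Prmt1, Prmt3, Prmt5 and Prmt7 below 0 under each, while Prmt6 crosses 0 when rescaled without the 20 most abundant genes.

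Ratios between members within a sample do not depend on any factor common to its genes. Prmt2 over Prmt5 ranged from 0.403 to 0.450 (WT-veh) and from 0.719 to 1.057 (WT-DES), with αERKO-veh at 0.365 to 0.487 and αERKO-DES at 0.283 to 0.396. WT-DES sample 1 held the highest ratio, with Prmt2 slightly above Prmt5, and the other 3 WT-DES samples were also above every sample of the other groups. Carm1 over Prmt5 ranged from 0.485 to 0.595 (WT-veh) and from 0.849 to 0.963 (WT-DES), with αERKO-veh at 0.604 to 0.802 and αERKO-DES at 0.572 to 0.674. WT-DES again lay above all other samples, and αERKO-veh lay between it and WT-veh with no overlap on either side. Prmt6 over Prmt5 was 0.308 to 0.345 in WT-DES and 0.233 to 0.275 over the other 3 groups. In contrast Prmt1 over Prmt5 overlapped between WT-veh (2.54 to 2.92) and WT-DES (2.54 to 2.87). Of the summed FPKM of the 7 genes, Prmt2 held 6.62% to 7.0% (WT-veh) and 10.9% to 14.5% (WT-DES), and Carm1 held 7.55% to 9.88% and 12.6% to 13.6%, in both cases without overlap. The family sum itself spanned 240 to 257 FPKM (WT-veh), 166 to 194 (WT-DES), 170 to 210 (αERKO-veh) and 195 to 233 FPKM (αERKO-DES).

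**Figure D4:**
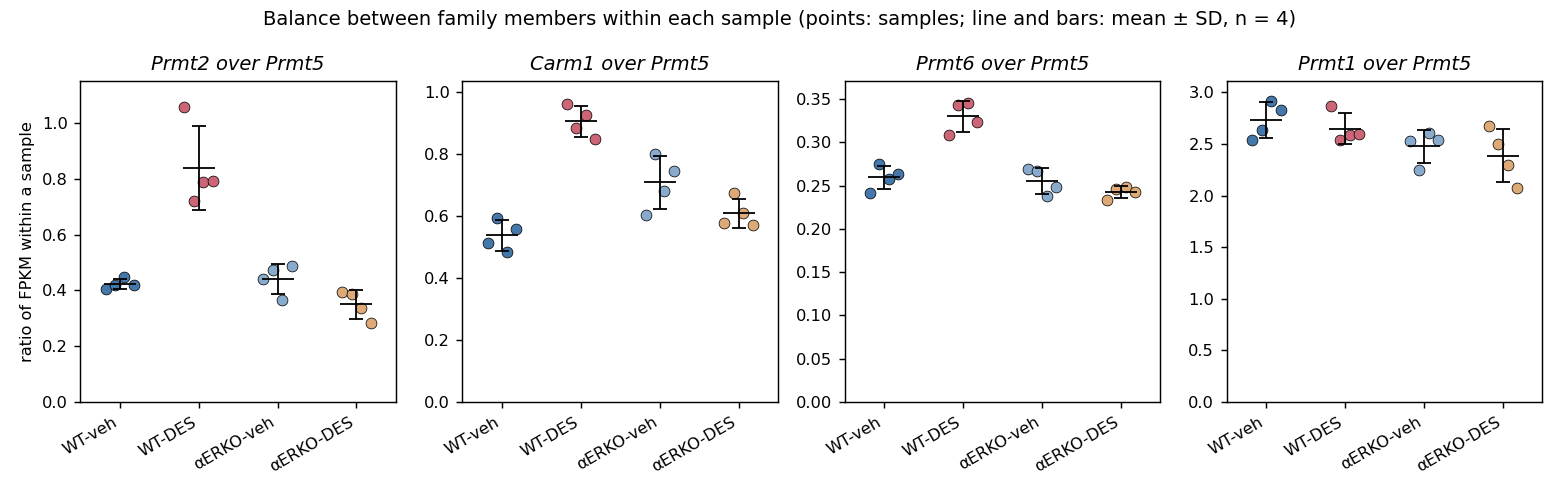
Ratio of FPKM between 2 family members within each sample (y axes from 0) in the 4 groups. Points are samples, and lines with bars are means ± SD (n = 4). Prmt2, Carm1 and Prmt6 relative to Prmt5 are highest in WT-DES in every sample, whereas Prmt1 relative to Prmt5 overlaps between WT-veh and WT-DES.

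αERKO-veh was compared with WT-veh to ask how the family differs with genotype in the vehicle-treated gland. Of the 7 genes 5 changed, Prmt1, Prmt3, Prmt5, Prmt6 and Prmt7, all to lower levels, whereas 26.1% of all genes tested changed and 15.2% were lower. The 26.1% went to 13.8% without WT-veh sample 3, 14% without WT-veh sample 4, 9.69% without αERKO-veh sample 2, 17% without αERKO-veh sample 4, 11.5% with a correction for transcript length, 16.5% with no minimum on FPKM and 55.5% with sample weights. None of the 5 reached a 1.5-fold difference of means, which 7.24% of all genes did. This comparison shares the WT-veh samples with that of WT-DES, so a chance high value in WT-veh would enter both.

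Prmt1 measured 80.7, 65.6, 90.4 and 77.7 FPKM in αERKO-veh, all below the lowest WT-veh sample (105), and fell by 0.49 (SE 0.10, limma adjusted p = 0.00663). Prmt3 had 17.1, 14.02, 18.8 and 17.5 FPKM, below its lowest WT-veh sample (22.6), and fell by 0.51 (SE 0.11, limma adjusted p = 0.00921). αERKO-veh sample 2 was the lowest of its group for both genes. Prmt5 had 31.9, 29.2, 34.8 and 30.5 FPKM and fell by 0.34 (SE 0.05, limma adjusted p = 0.0034). Prmt6 had 8.60, 7.81, 8.26 and 7.57 FPKM and fell by 0.34 (SE 0.06, limma adjusted p = 0.00499). Neither overlapped with WT-veh, and sample 3 was highest for Prmt5. Prmt7 (19.3, 16.5, 21.4 and 18.4 FPKM) overlapped with WT-veh in sample 3 and fell by 0.33 (SE 0.09, limma adjusted p = 0.0187). This last call was lost without WT-veh sample 3 (adjusted p = 0.0627), WT-veh sample 4 (0.0593) or αERKO-veh sample 2 (0.0694).

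Prmt2 (14.04, 13.8, 12.7 and 14.9 FPKM) was below every WT-veh sample too, at -0.28, but missed the threshold (limma adjusted p = 0.0847). Its scatter in WT-DES entered this test, because all 16 samples share the estimate of spread: it passed without WT-DES sample 1 (adjusted p = 0.0272) or with the 2 groups alone (0.0208). Carm1 (19.3, 23.4, 23.7 and 22.8 FPKM) overlapped with WT-veh, with a difference of 0.04 and a 95% interval of -0.14 to 0.22. Among all genes tested, 29.7% did not overlap between these groups, and 5 of the 7 genes did not. When rescaled without the 20 most abundant genes, which shifted the median of all genes by 0.14, Prmt1 (-0.31), Prmt3 (-0.33) and Prmt5 (-0.17) stayed past the threshold and Prmt6 and Prmt7 did not.

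In the same comparison 3 of 8 skeletal muscle markers were higher in αERKO-veh, where they summed to 756, 1649, 2312 and 1505 FPKM, against 738, 792, 751 and 2009 in WT-veh. The secretory genes were lower as a sum in every αERKO-veh sample (31859 to 50273 FPKM) than in WT-veh, with a median log2 difference of -0.50 over the 9 genes, although none of the 9 passed the test. Luminal epithelial markers also summed lower without overlap (1182 to 1456 against 1463 to 1621 FPKM), with Krt19 (-0.41) lower and Cdh1 (0.28) higher past the threshold. In the other lists the markers past the threshold were 2 of 4 for endothelium, 1 of 3 for basal epithelium, 1 of 10 for leukocytes, 1 of 8 for cell division, and 0 for fibroblast, smooth muscle, adipose and anterior prostate. The part of these shifts in the levels of the 7 genes was not tested.

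αERKO-DES was compared with αERKO-veh to ask what DES did without ERα. Only 1 of the 7 genes changed, where 2.85% of all genes did. That share moved between 0.00625% (without αERKO-veh sample 4) and 8.93% (without αERKO-veh sample 1) when single samples were left out, by over 1.5 times for 13 of the 16. Prmt5 had 37.9, 37.0, 38.9 and 37.8 FPKM in αERKO-DES, above every αERKO-veh sample, and rose by 0.26 (SE 0.05, limma adjusted p = 0.0351), 1.2-fold on the means. The call depended on the model, being lost with the 2 groups alone (adjusted p = 0.0962), under quantile normalization (0.166) and when rescaled without the 20 most abundant genes (0.196). With the 2 groups alone only 7 of 15988 genes passed, and under quantile normalization 5. It was also lost without any 1 of 6 samples, with adjusted p from 0.053 (WT-veh sample 3) and 0.0583 (αERKO-DES sample 2) to 0.0841 (αERKO-DES sample 1), 0.118 and 0.134 (αERKO-veh samples 4 and 2) and 0.123 (αERKO-DES sample 3). In these 6 fits the difference was 0.22 to 0.27, and 1 to 3 genes of all passed. Prmt6 (8.83, 9.10, 9.65 and 9.18 FPKM) did not overlap with αERKO-veh either, at 0.17 (limma adjusted p = 0.105), and 13% of all genes did not overlap. Prmt7 (24.3, 23.6, 25.3 and 20.8 FPKM) differed by 0.30 (limma adjusted p = 0.072), with overlap through sample 4, and passed without that sample (0.0496) or without αERKO-veh sample 3 (0.0437). Prmt1 (101, 92.3, 89.2 and 78.4 FPKM) differed by 0.20 and Prmt3 (23.6, 18.7, 21.8 and 16.5 FPKM) by 0.24, neither past the threshold. In both, samples 1 and 4 were the extremes of the group, sample 1 high and sample 4 low. Prmt2 (14.99, 14.3, 13.1 and 10.7 FPKM) and Carm1 (21.9, 24.9, 23.7 and 21.6 FPKM) differed by -0.07 and 0.05. Lower in αERKO-DES were 5 of 8 skeletal muscle markers (sums of 595 to 857 FPKM), 3 of 5 adipose markers (15.4 to 40.7 against 62.5 to 642), 1 of 6 fibroblast markers (496 to 594 against 599 to 980), 1 of 4 endothelial markers (46.5 to 53.7 against 48.3 to 85.5) and 1 of 3 anterior prostate markers (3460 to 4595 against 4282 to 5595). Their part in these differences was not tested.

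None of the 7 passed the test between αERKO-DES and WT-veh, where 8.06% of all genes did. With a single sample left out that share ranged from 2.36% (without αERKO-DES sample 3) to 14.3% (without αERKO-DES sample 1), moving by over 1.5 times for 8 of the 16. At an unadjusted p under 0.05 stood 4 of the 7, Prmt1 (-0.29), Prmt2 (-0.35), Prmt3 (-0.27) and Prmt6 (-0.17), with adjusted p from 0.0751 to 0.145 (limma), all on the lower side, as did 26.4% of all genes in either direction. Prmt1 passed without αERKO-veh sample 2 (adjusted p = 0.0456) or αERKO-DES sample 1 (0.0358), and Prmt2 without WT-DES sample 1 (0.0225) or αERKO-DES sample 1 (0.0418). Prmt5 (-0.09) and Prmt7 (-0.03) lay close to WT-veh, with 95% intervals of -0.20 to 0.02 and -0.22 to 0.17. Among the cell type markers, 4 of 5 for adipose were lower in αERKO-DES (sums of 15.4 to 40.7 FPKM against 114 to 610), as were 3 of 6 for fibroblasts (496 to 594 against 731 to 881), 1 of 3 for anterior prostate (3460 to 4595 against 4382 to 5409) and 1 of 10 for leukocytes (45.4 to 65.5 against 76.5 to 134), and 0 of the other lists passed. Their part in these differences was not tested.

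Between the treated groups, αERKO-DES against WT-DES, 5 of the 7 genes changed (74% of all genes did, and 37.8% were higher). Prmt1 was higher by 0.37 (limma adjusted p = 0.00261), Prmt3 by 0.32 (0.0182), Prmt5 by 0.52 (4.46e-07) and Prmt7 by 0.70 (5.03e-06), and Prmt2 was lower by 0.68 (7.65e-05) on the log2 scale. Prmt2 and Prmt7 were past 1.5-fold, as were 53.5% of all genes. Prmt6 (0.08) and Carm1 (-0.04) did not pass on the deposited scale. The samples of the 2 groups were apart for Prmt1, Prmt2, Prmt5 and Prmt7, as for 66.5% of all genes, and overlapped for Prmt3, whose call was lost without WT-DES sample 2 (adjusted p = 0.0604) and without αERKO-DES sample 1 (0.0672) or 3 (0.0551). When rescaled without the 20 most abundant genes, which shifted the median of all genes by -0.33, Prmt1 (-0.01) and Prmt3 (-0.05) were no longer higher, and Prmt6 (-0.27, limma adjusted p = 0.00511) and Carm1 (-0.41, 0.00123) passed as lower. Under quantile normalization Prmt1 (-0.17, limma adjusted p = 0.0277) and Carm1 (-0.21, 0.0302) passed as lower and Prmt6 (0.32, 0.000554) as higher. All 10 leukocyte, 6 fibroblast, 5 adipose and 4 endothelial markers were lower in αERKO-DES than in WT-DES, as were 2 of 3 basal markers. All 9 secretory genes and all 3 anterior prostate markers were higher, as were 5 of 6 luminal, 4 of 5 smooth muscle, 2 of 8 skeletal muscle and 1 of 8 cell division markers, and their part in the levels of the 7 genes was not tested.

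The interaction was taken as the difference between the DES effects in the 2 genotypes (WT minus αERKO). It differed from 0 for 6 of the 7 genes, 5 of them below 0, in a background of 71.5% of all genes and 36.2% below 0. The difference was -1.03 for Prmt7 (SE 0.13, limma adjusted p = 5.55e-06), -0.86 for Prmt5 (SE 0.07, 2.07e-07), -0.86 for Prmt1 (SE 0.14, 5.21e-05), -0.83 for Prmt3 (SE 0.16, 0.000298) and -0.42 for Prmt6 (SE 0.08, 0.000413). The same 5 genes had differences above 0 with DES in αERKO, with Prmt5 alone past the threshold there. For Prmt2 the difference was 0.40 (SE 0.16, limma adjusted p = 0.0387), a call that was lost when any 1 of 9 samples was left out (WT-veh 1, 2 or 4, WT-DES 1, αERKO-veh 1, 2 or 4, αERKO-DES 3 or 4), with adjusted p from 0.0555 to 0.0816. Across those fits the Prmt2 difference was 0.28 (without WT-DES sample 1), 0.31 (without αERKO-DES sample 4) or 0.37 to 0.40. For Carm1 the interaction was 0.08 with a 95% interval of -0.17 to 0.33. Rescaled without the 20 most abundant genes, which shifted the median of all genes by 0.49, the interaction was above 0 for Prmt6 (0.09, limma adjusted p = 0.446), no longer passed for Prmt3 (-0.29, 0.0731) and passed for Carm1 (0.62, 0.000789). Under quantile normalization it passed for Carm1 (0.28, limma adjusted p = 0.0403) and no longer for Prmt1 (-0.13, 0.195).

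The 10 pairs among Prmt1, Prmt3, Prmt5, Prmt6 and Prmt7 had Pearson correlations of log2(FPKM + 1) of 0.56 to 0.94 over the 16 samples, which the shared fall in WT-DES sets in part. Around the group means the same pairs ranged from 0.00 to 0.79, with Prmt1 and Prmt7 the closest (0.79) and the pairs of Prmt6 with Prmt1 (0.00), Prmt7 (0.10) and Prmt3 (0.19) near 0. The 6 pairs with Prmt2 ranged from -0.53 to 0.27 over the 16 samples and from -0.42 to 0.54 around the group means, with Prmt1 and Prmt2 at 0.54. The samples share scaling and tissue composition. The genes most alike to Prmt1 in pattern were Psmg3 (r = 0.98), a proteasome assembly chaperone, and Zfp428 (0.98). For Prmt5 they were D2Wsu81e (0.98) and Mak16 (0.97), a factor of ribosome biogenesis. For Prmt7 they were Eif1ad (0.98) and the translation initiation gene Eif3d (0.98). Prmt3 was most like the cell cycle kinase gene Cdk4 (0.95) and Rab26os (0.95), Prmt6 like the pyrimidine synthesis gene Umps (0.88) and Gm11545 (0.87), and Prmt2 like Kctd15 (0.97) and Gpr153 (0.97), each over 16 samples.

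The other arginine methyltransferases and the genes around the reaction were taken from lists of genes by known role. Of the remaining methyltransferases, the table carries Prmt9 under its former symbol Prmt10. It measured 10.7 to 12.8 FPKM in WT-veh and 9.07 to 9.97 in WT-DES, without overlap, and fell by 0.26 (limma adjusted p = 0.00425). The mitochondrial enzyme gene Ndufaf7 fell by 0.76 and the histone methyltransferase gene Mettl23 by 0.41, so that 3 of 3 tested fell, beside 37.3% of all genes. Rescaled without the 20 most abundant genes, Prmt10 (0.13) and Mettl23 (0.0018) were no longer lower. Prmt8, an enzyme of brain, was listed at 0 to 0.03 FPKM and was not tested.

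Among 11 cofactors and partners all 11 changed with DES in WT, 4 to lower and 7 to higher levels (median 0.34), where 73.8% of all genes changed. The lower ones were the PRMT5 complex genes Coprs (-1.71), which directs PRMT5 to histones, Clns1a (-0.65), which delivers Sm proteins, Wdr77 (-0.37), the obligate subunit, and Riok1 (-0.26). Coprs went from 42.6 to 50.9 FPKM in WT-veh to 11.4 to 16.2 in WT-DES. The higher ones were the p160 coactivators Ncoa1 (0.34), Ncoa2 (0.79) and Ncoa3 (0.99), the acetyltransferases Crebbp (0.99) and Ep300 (0.79), which act with CARM1 and PRMT1, and the PRMT1-binding genes Btg1 (0.32) and Btg2 (0.36). Rescaled without the 20 most abundant genes, Wdr77 (0.04) and Riok1 (0.14) were no longer lower, and after a correction for transcript length Ncoa1 (-0.05) was no longer higher. The interaction was past the threshold for 9 of the 11, beside 71.5% of all genes.

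Of 10 tested genes of S-adenosylmethionine supply and clearance 7 fell and 1 rose in WT-DES (median -0.38), against 37.3% of all genes that fell. Gnmt, the glycine methyltransferase that consumes S-adenosylmethionine, had 66.1, 66.7, 75.9 and 75.4 FPKM in WT-veh and 2.48, 2.05, 2.20 and 2.70 in WT-DES. In αERKO-DES it stayed at 81.2 to 113 FPKM. It fell by 4.42 on the log2 scale (limma adjusted p = 6.22e-12), at the 0.21st percentile of all genes. Amd1, of polyamine synthesis, whose reads may be split with a near-identical copy, fell by 1.54, the synthetase gene Mat2a by 0.70, Ahcy, which clears the inhibitory product S-adenosylhomocysteine, by 0.67, and Mtap, which clears the PRMT5 inhibitor methylthioadenosine, by 0.31 (0.10, and so no longer lower, when rescaled without the 20 most abundant genes). Mat2a had 80.5, 88.7, 108 and 178 FPKM in WT-veh, with sample 4 far above the others, and 59.7 to 71.6 in WT-DES. The methionine synthase gene Mtr rose by 0.84.

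All 4 readers of methylarginine fell (median -0.43, with 37.3% of all genes falling), among them Snd1 (-1.24), Smn1 (-0.58) and Tdrd3 (-0.28, or 0.13 when rescaled). Of 16 substrates in RNA handling 12 fell and 3 rose (median -0.44), so 15 of 16 changed beside 73.8% of all genes. The Sm and Lsm genes Snrpd3 (-0.996), Lsm4 (-0.997) and Snrpb (-0.64), whose proteins PRMT5 methylates, and the nucleolar methyltransferase gene Fbl (-0.72), a substrate of PRMT1, were among the lower ones. Under quantile normalization Snrpb stood at 0.04. Of 6 substrates in chromatin and transcription 3 rose, Runx1 (1.99), Esr1 (1.61) and Foxo1 (0.89), and 1 fell, 4 of 6 in all.

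Genes for the turnover of methylarginine and for citrullination, the conversion of arginine that competes with methylation, were followed in 1 list. Padi1, Padi2 and Padi4 had means above 1 FPKM in WT-DES alone, so they entered the test through the group in which they were high, and their values are a description. Padi3 (mean 0.13 FPKM in WT-veh and 0.48 in WT-DES) and Padi6 were below the minimum and not tested. Padi2 was at 0.63 to 0.80 FPKM in WT-veh and 15.03, 24.95, 6.02 and 11.3 in WT-DES, and Padi4 at 0.39 to 0.60 and 13.2, 11.3, 4.14 and 12.2. WT-DES sample 3 was the lowest of its group for both and still above every other sample. Padi1 had means of 0.42 FPKM in WT-veh and 8.48 in WT-DES. Padi4 is known as a gene of neutrophils. In WT-DES samples 1 to 4 the leukocyte markers summed to 489, 578, 590 and 394 FPKM. The basal epithelial markers summed to 297, 223, 123 and 348 FPKM in the same samples. The part of either cell type in the Padi levels was not tested. Jmjd6, whose product has been described as an arginine demethylase and a lysyl hydroxylase, fell by 0.89, and the genes for clearing free asymmetric dimethylarginine, Ddah1 (0.47, limma adjusted p = 0.0526) and Ddah2 (0.19), did not pass. In αERKO-DES against αERKO-veh, 1 gene of the supply list, Ahcy (0.31, limma adjusted p = 0.046), and 1 of the chromatin substrates passed, and 0 of the other lists, where 2.85% of all genes did.

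**Figure D5:**
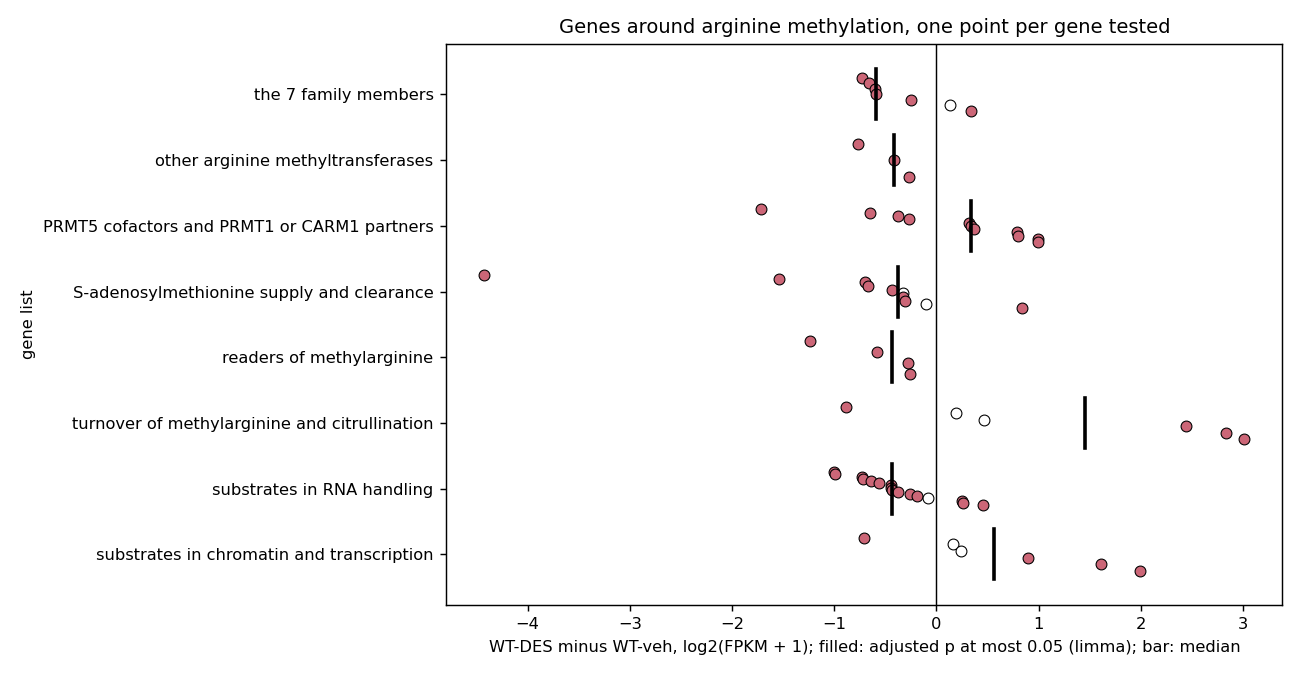
Difference between WT-DES and WT-veh in log2(FPKM + 1) (x axis) for each tested gene of the family and of 7 related lists (y axis), filled where the adjusted p was at most 0.05 (limma), with the list median as a bar. The 7 family members centre on -0.59, the partners split between Coprs (-1.71) and Ncoa3 (0.99), and the 3 Padi genes shown, which passed the minimum through WT-DES alone, lie between 2.45 and 3.01.

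In αERKO-veh against WT-veh, where 26.1% of all genes changed, the related lists differed in their share of calls. Partners changed in 7 of 11 (3 lower, 4 higher), with Coprs (-0.62), Clns1a (-0.41) and Wdr77 (-0.27) lower, and Ncoa1 (0.52) and Ncoa2 (0.67) higher. RNA-handling substrates changed in 7 of 16, 6 of them lower, the supply list in 3 of 10, the chromatin substrates in 3 of 6, and the other methyltransferases, the readers and the turnover genes in 1 each. Gnmt (0.04) did not pass there.

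The FPKM of some members can hold reads of neighbours, since the sources do not say whether strand was used in counting. In GENCODE M21 on GRCm38, Carm1 (chr9:21546894-21592623, plus strand) overlaps Yipf2 on the opposite strand by 3942 bp, and Yipf2 fell by 1.83 in WT-DES while Carm1 did not pass. Prmt7 (chr8:106210936-106252794, plus strand) starts beside Slc7a6os on the opposite strand, which fell by 0.21 in WT-DES and by 0.25 in αERKO-veh, overlaps the opposite-strand lincRNA gene Gm26786 by 14892 bp, and overlaps Smpd3 by 247 bp, which had a mean of 0.43 FPKM in WT-veh and 1.76 in WT-DES. Prmt6 (chr3:110246109-110250998, minus strand) overlaps the antisense gene C130013H08Rik by 984 bp. Prmt1 (chr7:44975989-44986568, minus strand), Prmt5 (chr14:54507187-54517525, minus strand), Prmt2 (chr10:76207222-76237865, minus strand) and Prmt3 (chr7:49778346-49858265, plus strand) overlap no protein-coding gene, although Prmt3 overlaps Gm44822 on its own strand by 6389 bp and the lincRNA gene Gm26856 on the other by 1439 bp, and Prmt2 holds Mir678.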

How the data were processed

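Gene expression in 16 SV samples of 4 groups was measured by RNA-seq. Per the labels, the authors obtained the FPKM with TopHat2 2.0.4 and Cufflinks 2.0.2 on mm10. Annotation, strand use and scaling between libraries are not given in the sources used here, and the depth per sample is unknown, so precision rests on the 4 samples of a group. From these values, log2(FPKM + 1) was fitted in limma 3.58.1 (R 4.3.3) with a mean per group over 16 samples and moderated variances that follow a trend on mean level. Benjamini-Hochberg adjustment covered the 15988 genes whose mean passed 1 FPKM in any group. A gene had changed at an adjusted p of at most 0.05. Ratios and ranges were computed in Python 3.11.15.

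The members, lists and tests were chosen with earlier results of these data known. Genes named besides the members were 14 fixed partners, the 3 largest changes of each list in WT-DES against WT-veh, and the 2 genes most alike to each changed member. Riok1, Ep300, Snrpb and the neighbouring genes were named after their values were seen. The analysis was tested on simulated data. Alternatives were a pseudocount of 0.1, no minimum, a minimum of 5 FPKM, a 1.5-fold threshold, an adjusted p of 0.01, no variance trend, sample weights, a block for replicate number, scaling by median ratios, quantile normalization, rescaling without the 20 most abundant genes, a length correction (94.1% of genes tested had a length in GENCODE M21), the 2 groups alone, and each sample left out in turn. Promoters are from RefSeq on GRCm38.p6.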

Additional observations from a re-analysis of the deposited data

Results flagged for a closer look

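Prmt5 in WT-DES held a sample far from the others of its group: WT-DES sample 2, at 25.2 FPKM against 26.4 to 26.7, with a gap of 0.838 of the group's range, over Dixon's 95% critical value for 4 samples. Over the 7 genes and 4 groups 28 such tests were made, and chance flags about 1 in 20 groups. Prmt5 kept its call in WT-DES against WT-veh without it.

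The change with DES differed between WT and αERKO, by the interaction in limma, for Prmt1 (-0.86), Prmt2 (0.40), Prmt3 (-0.83), Prmt5 (-0.86), Prmt6 (-0.42) and Prmt7 (-1.03), on the log2 scale. For Prmt2 the adjusted p was 0.0387 and rose above 0.05 in 9 of the 16 fits that left out a sample.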

How the results depend on the processing

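Of 7 genes, 6 changed in WT-DES against WT-veh (5 to 6 with a sample left out), 5 in αERKO-veh against WT-veh (4 to 6), 1 in αERKO-DES against αERKO-veh (0 to 2), 0 in αERKO-DES against WT-veh (0 to 2), 5 in αERKO-DES against WT-DES (4 to 5) and 6 in the interaction (5 to 6). A 1.5-fold threshold left 0 in αERKO-veh against WT-veh, 0 in αERKO-DES against αERKO-veh and 2 in αERKO-DES against WT-DES. Rescaling without the 20 most abundant genes left 3 in αERKO-veh against WT-veh. Prmt5 in αERKO-DES against αERKO-veh was lost (0 genes) at an adjusted p of 0.01, under quantile normalization, under that rescaling and with the 2 groups alone. Sample weights gave 4 there, beside 41.8% of all genes instead of 2.85%, and 4 in αERKO-DES against WT-veh, beside 24.7% instead of 8.06%, where quantile normalization and the rescaling gave 1 each. With αERKO-veh sample 1 alone in its group, chosen after seeing the data and assuming that it varies like the other groups, 0 of the 7 passed in either comparison with αERKO-veh. Only 11 of 15954 genes passed there against WT-veh, so this fit says nothing about stability.

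Turned signs were listed only for results past the threshold in the main fit or in the alternative. Signs turned under the rescaling for Prmt6 (0.15), Wdr77 (0.0442), Riok1 (0.14), Mtap (0.10), Tdrd3 (0.13), Prmt10 (0.13) and Mettl23 (0.0018) in WT-DES against WT-veh, for Prmt1 (-0.0086), Prmt3 (-0.0454) and Prmt6 (-0.27) in αERKO-DES against WT-DES, and for Prmt6 (0.0923) in the interaction. They turned under quantile normalization for Snrpb (0.0404) in WT-DES against WT-veh and Prmt1 (-0.17) in αERKO-DES against WT-DES, and under the length correction, with or without the replicate block, for Ncoa1 (-0.0474). The cause was not tested. Of all genes called, the share that was higher went with the rescaling from 49.4% to 72.4% in WT-DES against WT-veh, from 41.5% to 78.1% in αERKO-veh against WT-veh (52.3% under quantile normalization), from 46.6% to 10.9% in αERKO-DES against αERKO-veh (60%, 3 of only 5 genes called, under quantile normalization), from 51% to 30% in αERKO-DES against WT-DES and from 49.4% to 73.7% in the interaction, and with quantile normalization from 59.2% to 69.7% in αERKO-DES against WT-veh.

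Same-numbered samples did not deviate together (r above 0.1 in 3 of 24 pairs), so the numbers do not pair the samples. With the replicate block 6 members passed in WT-DES against WT-veh, 5 in αERKO-veh against WT-veh and 1 in αERKO-DES against αERKO-veh, and no other count moved. FPKM carry no read counts, so what depth limits is not known.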
